A study of Homo sapiens with 6 samples.

Results

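Iron uptake, storage, export and haem breakdown were followed through 10 genes, chosen by name out of the 33392 genes of an RNA sequencing table, and all 10 had a row. The 10 are HMOX1, HMOX2, BACH1, TFRC, FTH1, FTL, NCOA4, SLC40A1, IREB2 and ACO1. They were singled out because HMOX1 and TFRC were higher after DYRK2 silencing, so their differences between the groups are given as a description, without p-values. The libraries came from HK-2 cells, an immortalised epithelial line of the human kidney proximal tubule. In the siDYRK2 group (3 libraries) the cells received TGF-β1 and an siRNA against the kinase DYRK2, and in the scramble group (3 libraries) TGF-β1 and a scramble siRNA. All 6 libraries carry a 48 h time point and all cells had TGF-β1, so no value here measures the response to that cytokine. Whether replicates came from separate cultures is not stated in the labels, so the p-values cover only how these samples vary, possibly for technical reasons.

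Cells take up iron mainly as transferrin bound to the transferrin receptor, store it inside ferritin shells built of heavy and light chains, and release it through ferroportin. Haem oxygenases open the haem ring and set its iron free, and the repressor BACH1 holds the inducible oxygenase gene down until haem binds it. Iron regulatory proteins bind hairpins in the transcripts themselves when iron is scarce, blocking translation of ferritin and protecting the transferrin receptor mRNA from decay. In the kidney the proximal tubule takes up filtered iron, and haem oxygenase 1 is known there as a stress-induced enzyme.

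Levels are FPKM, fragment abundance corrected for the length of the transcript and the size of the library, so levels can be compared between genes. The sequencing depth is unknown, because FPKM does not hold it. Mitochondrially encoded transcripts took 26.4% to 27.8% of the FPKM of a library. DYRK2 (ENSG00000127334) stood at 1.45, 1.54 and 1.49 FPKM in the siDYRK2 libraries, against 5.84, 6.06 and 5.96 FPKM in the scramble libraries. Log2 fold changes are siDYRK2 minus scramble, computed on log2(FPKM + 0.5), and that of DYRK2 came to −1.69 (SE 0.0513, limma adjusted p = 2.0e-06). For DYRK2 the exact two-sided permutation test gave p = 0.1, the smallest that 3 against 3 libraries allow. Of 11 proximal tubule markers looked up, 2 had no row, 8 had a mean under 0.5 FPKM and 1 passed that level. Those under it included the water channel AQP1 and the renal factor PAX8, so these defining markers of the labelled cell type were at or near 0 in both groups.

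After DYRK2 silencing, the transcripts of the inducible haem oxygenase HMOX1 and of the transferrin receptor TFRC were more abundant, while the ferritin light chain, the haem-sensing repressor BACH1 and the iron regulatory protein ACO1 were less abundant. HMOX1 was 3.25-fold and TFRC 2.58-fold as high as in scramble cells. FTL stood at 69.6%, ACO1 at 65.6% and BACH1 at 55.5% of the scramble level. FTH1, NCOA4, HMOX2 and IREB2 were within 10.55% of it. The exporter SLC40A1 was barely listed in either group. In bulk RNA, fewer cells making a transcript and less of it per cell cannot be told apart.

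**Figure D1:**
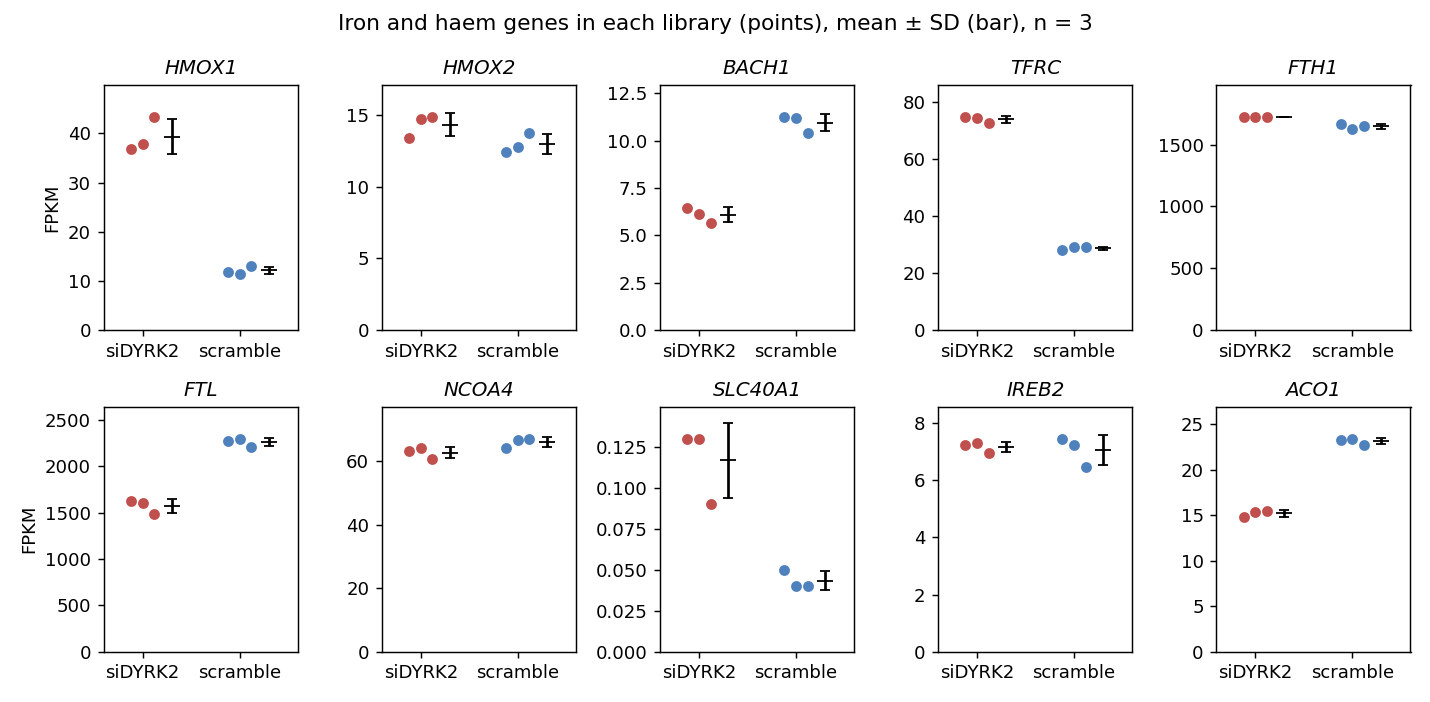
FPKM of the 10 iron and haem genes in each library, siDYRK2 libraries on the left of each panel and scramble libraries on the right; points are libraries and the bars give the mean ± SD of 3. Every axis starts at 0, and the groups lie far apart for HMOX1, BACH1, TFRC, FTL and ACO1.

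Of the 10 genes, 9 had a mean of at least 0.5 FPKM over the 6 libraries and entered the fit across 15121 genes, and SLC40A1 did not. By limma at an adjusted p under 0.05, 2 of the 9 were called higher, against 20.4% of all tested genes, and 3 were called lower, against 17.9%, and together these are 5 of 9, against 38.3% called in either direction. For 7 of the 9 all libraries of one group lay outside the range of the other, against 51.7% of all tested genes. The median log2 fold change of the 9 was 0.02, and 0.01 over all tested genes. Their median absolute log2 fold change was 0.52, and 0.17 over all tested genes. Without siDYRK2 replicate 1, HMOX2 was called as well, making 3 of 9 higher. As the list was chosen on this contrast, these counts describe the genes and test nothing.

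Haem breakdown is carried by an inducible and a constitutive enzyme. HMOX1 (ENSG00000100292; GRCh38 chromosome 22, 35380835 to 35394214, plus strand, for its principal transcript) encodes the inducible haem oxygenase. HMOX1 stood at 36.9, 37.9 and 43.4 FPKM in siDYRK2 libraries, against 11.9, 11.5 and 13.0 FPKM in scramble libraries. Every siDYRK2 library lay above every scramble library, and siDYRK2 replicate 3 was the highest. The log2 fold change was 1.66 (SE 0.0709), and 0.205% of all tested genes had a larger absolute one.

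HMOX2 (ENSG00000103415; chromosome 16, 4475924 to 4510347, plus strand) encodes the constitutive haem oxygenase. HMOX2 stood at 13.4, 14.8 and 14.9 FPKM in siDYRK2 libraries, against 12.4, 12.8 and 13.8 FPKM in scramble libraries. The groups overlapped, and the log2 fold change was 0.14 (SE 0.0560). The genes for both oxygenases were thus at similar levels in scramble cells, where the HMOX1 to HMOX2 ratio within a library was 0.956, 0.897 and 0.944. In siDYRK2 cells that ratio was 2.75, 2.57 and 2.91, so the inducible transcript was the more abundant one in each of these 3 libraries.

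BACH1 (ENSG00000156273; chromosome 21, 29299416 to 29346148, plus strand) encodes the repressor that haem displaces from the HMOX1 enhancers. BACH1 stood at 6.44, 6.14 and 5.66 FPKM in siDYRK2 libraries, against 11.3, 11.2 and 10.4 FPKM in scramble libraries. All 3 siDYRK2 values lay below all 3 scramble values, and replicate 3 was the lowest of each group. The log2 fold change was −0.80 (SE 0.0572). The ratio of HMOX1 to BACH1 was 6.52 ± 1.01 in siDYRK2 libraries and 1.11 ± 0.121 in scramble libraries (SD, n = 3 each). The antisense and intronic rows named after BACH1 numbered 3, reached at most 0.5 FPKM in any library and were not tested. Strand use is not given in the sources used here, so reads of overlapping genes could be mixed.

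**Figure D2:**
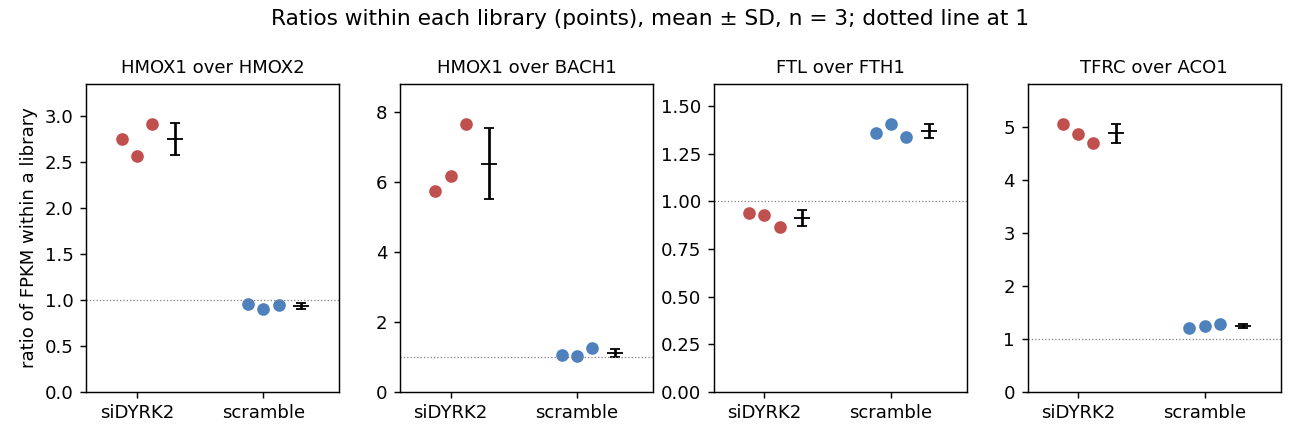
Ratios of FPKM between pairs of genes within each library, siDYRK2 on the left and scramble on the right, with the mean ± SD of 3 libraries; the dotted line marks equal levels. FTL over FTH1 lay below 1 in every siDYRK2 library and above 1 in every scramble library, while HMOX1 over HMOX2 did the reverse.

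TFRC (ENSG00000072274; chromosome 3, 196049284 to 196082189, minus strand) encodes the transferrin receptor, the main entry route for iron. TFRC stood at 74.8, 74.5 and 72.5 FPKM in siDYRK2 libraries, against 28.11, 28.96 and 28.93 FPKM in scramble libraries. The values within each group were close together and the groups were far apart. The log2 fold change was 1.35 (SE 0.0291), and 0.443% of all tested genes had a larger absolute one.

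Hairpins called iron-responsive elements set how these transcripts react to iron regulatory proteins, so they are printed for the genes of uptake, storage and export. The pattern searched was a C, any 5 bases and the loop CAGTGN, with at least 4 of the 5 bases on each side of the loop able to pair, G with T included. The transcripts are the principal ones of GENCODE v29 on GRCh38. Capitals mark the bulged C and the loop, and each window holds 29 bases in the transcript's direction.
TFRC element A, 3′ UTR: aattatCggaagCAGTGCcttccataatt
TFRC element B, 3′ UTR: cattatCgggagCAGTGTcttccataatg
TFRC element C, 3′ UTR: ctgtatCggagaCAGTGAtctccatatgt
TFRC element D, 3′ UTR: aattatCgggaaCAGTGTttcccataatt
FTH1, 5′ UTR: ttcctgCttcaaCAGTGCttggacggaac
FTL, 5′ UTR: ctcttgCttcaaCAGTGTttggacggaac
SLC40A1, 5′ UTR: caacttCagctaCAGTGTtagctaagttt

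In TFRC the 4 matches to this pattern, lettered A to D here from the 5′ end, lay in exon 19, the last one. They fell within 545 bases of the 3′ UTR, from chr3:196050979-196051007 for element A to chr3:196050463-196050491 for element D, on the minus strand. These 4 matches shared 16 of 29 positions. An element whose loop is not CAGTGN would be missed, so the count and letters hold for this search only. The ferritin elements lay in exon 1, at chr11:61967574-61967602 on the minus strand for FTH1 and chr19:48965335-48965363 on the plus strand for FTL. They were alike at 26 of 29 positions, and in the loop they differed by C18T, counted from the 5′ end of the FTH1 window. The SLC40A1 element lay in exon 1 at chr2:189580661-189580689 on the minus strand. All 7 had 5 of 5 possible stem pairs. ACO1 and IREB2 had 1 match each in the 3′ UTR with 4 of 5 pairs, and HMOX1, HMOX2, BACH1 and NCOA4 had none. Among 11909 tested protein-coding genes searched the same way, 0.831% had a match in the 5′ UTR and 4.44% in the 3′ UTR, so a match alone is no sign of a working element. These shares include matches with 4 of 5 pairs, and the share with 5 of 5 was not counted.

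**Figure D3:**
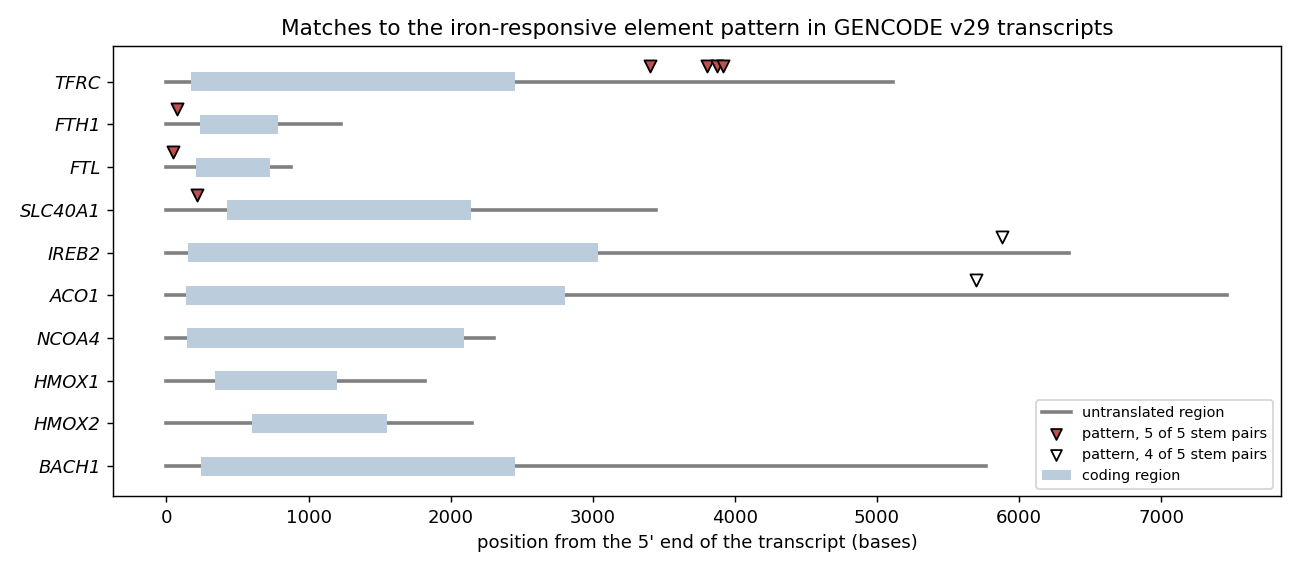
Position of matches to the iron-responsive element pattern (triangles) along the principal transcripts of the 10 genes, in bases from the 5′ end; boxes are coding regions and lines untranslated regions. Matches with 5 of 5 stem pairs lie behind the coding region in TFRC and ahead of it in FTH1, FTL and SLC40A1.

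The transcripts with elements on the same side of the coding region did not all differ alike between the groups. FTL (ENSG00000087086; chromosome 19, 48965301 to 48966878, plus strand) encodes the light chain of ferritin, which favours mineral formation in the shell. FTL stood at 1625, 1602 and 1489 FPKM in siDYRK2 libraries, against 2269, 2297 and 2210 FPKM in scramble libraries. The groups were apart, with siDYRK2 replicate 3 the lowest library, and the log2 fold change was −0.52 (SE 0.0429).

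FTH1 (ENSG00000167996; chromosome 11, 61964285 to 61967660, minus strand) encodes the heavy chain, which oxidises iron as it enters. FTH1 stood at 1726, 1723 and 1724 FPKM in siDYRK2 libraries, against 1666, 1631 and 1650 FPKM in scramble libraries. The groups did not overlap, but the siDYRK2 mean was only 4.58% above the scramble mean (log2 fold change 0.06, SE 0.0296). The FTL to FTH1 ratio was 0.942, 0.930 and 0.864 in siDYRK2 libraries, against 1.36, 1.41 and 1.34 in scramble libraries. By FPKM the more abundant transcript was therefore that of the heavy chain in siDYRK2 cells and that of the light chain in scramble cells. Which chain is ahead within a group depends on the length correction and on how reads that map to several places were counted. Ferritin protein was not measured.

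Both ferritin genes were among the most abundant transcripts of the table, FTL at rank 16 and FTH1 at rank 17 by mean FPKM over the 6 libraries. Their FPKM together came to 3297 ± 73.0 in siDYRK2 libraries and 3908 ± 41.5 in scramble libraries (SD, n = 3 each). FTL made up 0.617% of the FPKM of a siDYRK2 library and 0.890% of a scramble library.

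Ferritin genes have many processed copies in the genome, and reads may be shared with them. The table held 16 copies of FTH1, whose FPKM summed to 28.2, 31.2 and 28.3 in siDYRK2 libraries and 30.7, 26.2 and 29.8 in scramble libraries. That was 1.70% of FTH1 in siDYRK2 libraries and 1.75% in scramble libraries. The 5 copies of FTL summed to 3.24, 3.04 and 2.35 FPKM in siDYRK2 libraries and 3.82, 4.47 and 4.27 FPKM in scramble libraries. Most of that was FTLP3, which stood at 68.9% of its scramble level, close to the 69.6% of FTL itself. How reads that map to several places were counted is not given in the sources used here, so the values of the copies are uncertain.

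NCOA4 (ENSG00000266412; chromosome 10, 46006412 to 46030607, minus strand) encodes the receptor that carries ferritin to the lysosome for degradation. NCOA4 stood at 63.2, 64.1 and 60.8 FPKM in siDYRK2 libraries, against 64.3, 66.8 and 67.1 FPKM in scramble libraries. The siDYRK2 mean was 94.9% of the scramble mean, with groups that only just missed each other (log2 fold change −0.08, SE 0.0330).

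SLC40A1 (ENSG00000138449; chromosome 2, 189560579 to 189580887, minus strand) encodes ferroportin, the only known iron exporter of animal cells. SLC40A1 was listed at 0.13, 0.13 and 0.09 FPKM in siDYRK2 libraries, against 0.05, 0.04 and 0.04 FPKM in scramble libraries. The siDYRK2 values were the higher ones, but at a level this near 0 and with 2 decimals in the table no fold is given.

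ACO1 and IREB2 encode the iron regulatory proteins IRP1 and IRP2, of which the first also works as cytosolic aconitase when it carries an iron-sulphur cluster. ACO1 (ENSG00000122729; chromosome 9, 32384620 to 32454769, plus strand) stood at 14.8, 15.3 and 15.4 FPKM in siDYRK2 libraries, against 23.3, 23.4 and 22.7 FPKM in scramble libraries. The groups were apart by many times their spread, with a log2 fold change of −0.59 (SE 0.0332). IREB2 (ENSG00000136381; chromosome 15, 78438189 to 78501456, plus strand) stood at 7.23, 7.29 and 6.97 FPKM in siDYRK2 libraries, against 7.46, 7.24 and 6.47 FPKM in scramble libraries. The IREB2 groups overlapped, with a log2 fold change of 0.02 (SE 0.0582). ACO1 was thus 2.12 ± 0.0860 times as abundant as IREB2 in siDYRK2 libraries and 3.29 ± 0.199 times in scramble libraries (SD, n = 3 each).

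The order of the levels, highest first, was FTH1, FTL, TFRC, NCOA4, HMOX1, ACO1, HMOX2, IREB2, BACH1 and SLC40A1 in siDYRK2 libraries. In scramble libraries it was FTL, FTH1, NCOA4, TFRC, ACO1, HMOX2, HMOX1, BACH1, IREB2 and SLC40A1. Of the neighbours in these orders, ACO1 and HMOX2 in siDYRK2 libraries, at 15.2 ± 0.338 and 14.4 ± 0.823 FPKM, and HMOX2, HMOX1 and BACH1 in scramble libraries, at 13.0 ± 0.689, 12.1 ± 0.780 and 10.95 ± 0.471 FPKM, differed within each named run by less than the sum of the SDs of both neighbours (SD, n = 3 each). No other neighbours were this close.

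Some letters in the transcripts and promoters were shared and others were not. The 7-base word ATCTATA was looked up with earlier results of these data known. Of the 1175 tested genes that hold it in the 3′ UTR, 31.7% were called lower by limma, against 17.1% of the 10734 others. This difference was the reason for the look-up and was not adjusted for 3′ UTR length, so it tests nothing. None of the 10 transcripts held the word in the 3′ UTR. It occurred once in the coding regions of ACO1, IREB2 and TFRC and nowhere in the other 7 transcripts, and 14.5% of 11909 tested genes hold it anywhere. Of these 3 genes ACO1 was lower, TFRC higher and IREB2 neither. Promoter windows of 250 bases before to 50 after a start site were listed by RefSeq on GRCh38.p14 for 8 of the 10 genes, in 13 windows, and HMOX1 and FTH1 were not searched. The motif TGACTCA, the core of AP-1 sites and of sites bound by BACH1 with small MAF proteins, was found on either strand in 1 of these 8 genes, BACH1, and in 4.95% of all 35116 windows. It is shown in capitals, on the opposite strand, at chr21:29298865-29298889, 48 bases before the start site of its RefSeq window. That start site lies upstream of the BACH1 transcript placed above, which begins at 29299416 on chromosome 21.
BACH1 promoter: cggaaggagTGAGTCAcctgaccgc
The motif TGANNNNGC was in windows of 3 of the 8 genes and in 41.8% of all windows. In BACH1 it lay at chr21:29305018-29305044, so the TGACTCA site printed above is not a match to TGANNNNGC.

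To find genes with similar values, the 6 log2 values of each gene were taken relative to its own scramble mean. Likeness on this scale mostly means a similar difference between the groups. The genes most like HMOX1 were CYP24A1, SECTM1, TFRC and MPZL2, out of 7343 genes averaging 5 FPKM or more. Their root mean square distance from HMOX1 was 0.162 to 0.240 log2 units. Those most like TFRC were TGFBI, MT1A, RRM2 and MPZL2, at distances from TFRC of 0.0457 to 0.105. HMOX1 and TFRC were both chosen for their rise, so their nearness to each other tests nothing. TGFBI, which encodes a matrix protein, stood at 24.6 ± 0.683 FPKM in siDYRK2 libraries and 9.68 ± 0.168 FPKM in scramble libraries (SD, n = 3 each). MT1A belongs to a family of near-identical metallothionein genes, so its reads may be shared.

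The rest of iron and haem metabolism was followed in 7 wider lists of 96 genes, of which 82 were tested, 11 were below 0.5 FPKM and 3 had no row. By limma, 18 of the 82 rose, against 20.4% of all tested genes, 23 fell, against 17.9%, and 41 did not pass. The median log2 fold change was 0.01, the same to 2 decimals as over all tested genes.

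In the list of iron entry genes, 3 of 11 tested rose and 4 fell, against 20.4% and 17.9% of all tested genes, and the median log2 fold change was −0.01. LCN2, a secreted protein that binds iron-loaded siderophores, stood at 12.8, 11.7 and 11.4 FPKM in siDYRK2 libraries, against 59.6, 58.4 and 62.8 FPKM in scramble libraries (log2 fold change −2.29, SE 0.0502, limma adjusted p = 8.6e-07). SLC22A17, which encodes a receptor for LCN2 and was named after its values were seen, was 1.72-fold as high (limma adjusted p = 0.0053). Of the importers of iron not bound to transferrin, SLC39A14 and SLC11A2 (DMT1) rose, while SLC39A8, named after its values were seen, had a log2 fold change of 0.15 (SE 0.0489) and did not pass (limma adjusted p = 0.052). SLC39A14 stood at 82.3 ± 1.65 FPKM in siDYRK2 libraries and 64.8 ± 1.86 FPKM in scramble libraries, and SLC11A2 at 11.4 ± 0.241 FPKM in siDYRK2 libraries and 9.07 ± 0.298 FPKM in scramble libraries (SD, n = 3 each; limma adjusted p = 2.7e-04 and 9.9e-04). The ferric reductase CYBRD1 fell to 75.8% of its scramble level (limma adjusted p = 0.0026).

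**Figure D4:**
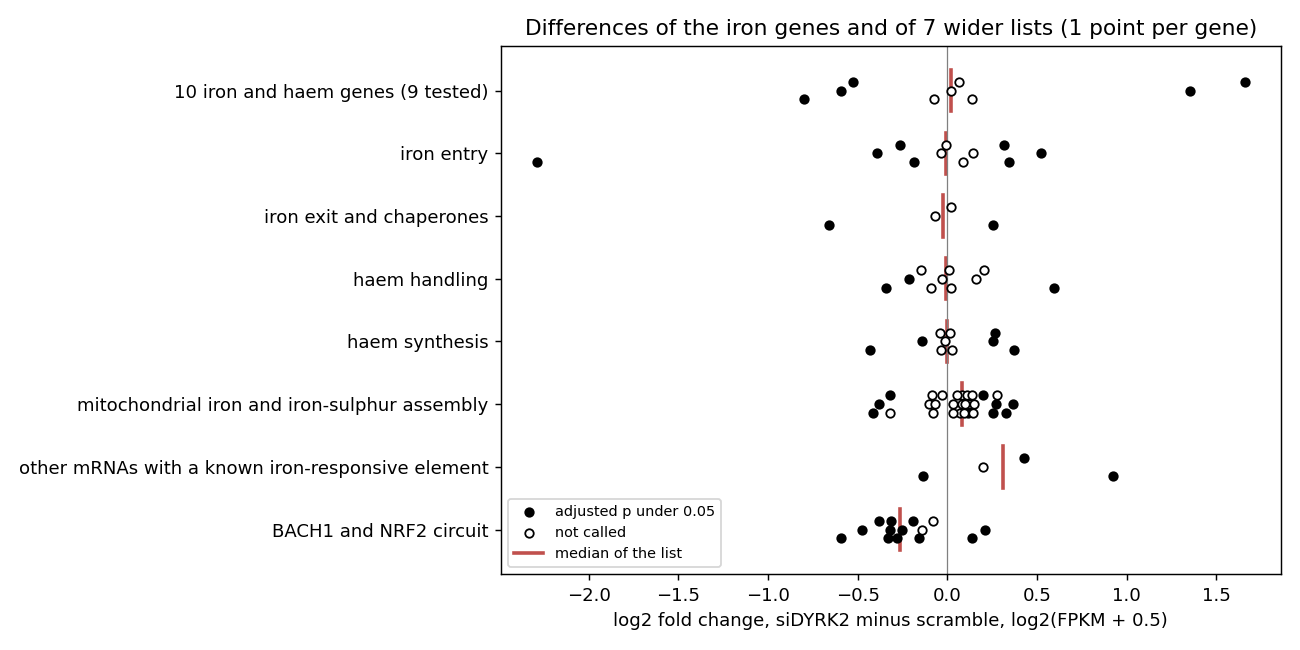
Log2 fold changes (siDYRK2 minus scramble, log2(FPKM + 0.5) scale) of the tested iron and haem genes, top row, and of the 7 wider lists, 1 point per gene; filled points have a limma adjusted p under 0.05 and the red line is the list's median. The genes of most lists lie on both sides of 0, while 10 of 14 genes of the BACH1 and NRF2 list are called lower.

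Among genes of iron exit, chaperoning and ferritin control, 1 of 4 tested rose and 1 fell, near the 20.4% and 17.9% of all tested genes, with a median of −0.02. FBXL5, the ubiquitin ligase subunit that senses iron and marks IRP2 for degradation, stood at 19.4, 19.5 and 18.6 FPKM in siDYRK2 libraries, against 30.8, 31.5 and 29.4 FPKM in scramble libraries. The groups were far apart (log2 fold change −0.66, SE 0.0384, limma adjusted p = 3.2e-05). HERC2, a ubiquitin ligase that acts on NCOA4, rose 1.22-fold (limma adjusted p = 0.026), which missed the threshold in 6 of 14 alternative settings. The hepcidin gene HAMP, whose product removes ferroportin, reached at most 0.05 FPKM in the 6 libraries.

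In haem handling, 1 of 10 tested genes rose and 2 fell, against 20.4% and 17.9% of all tested genes, with a median of −0.01. SLC48A1, which moves haem out of lysosomes, stood at 19.2, 17.6 and 17.8 FPKM in siDYRK2 libraries, against 11.5, 12.4 and 11.9 FPKM in scramble libraries (log2 fold change 0.59, SE 0.0467, limma adjusted p = 1.2e-04). POR, the reductase that feeds electrons to haem oxygenases, fell to 78.2% and FLVCR1, described as a haem exporter, to 85.1% of the scramble level (limma adjusted p = 8.1e-04 and 0.0092). The biliverdin reductases BLVRA and BLVRB, which act after haem oxygenase, did not pass the test, with log2 fold changes of −0.03 (SE 0.0518) and 0.02 (SE 0.0548).

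In haem synthesis, 3 of 10 tested genes rose and 2 fell, against 20.4% and 17.9% of all tested genes, with a median of −0.00066. ALAS1, the rate-limiting first enzyme, rose 1.20-fold, CPOX 1.21-fold and FECH, which inserts the iron, 1.32-fold, while ALAD fell to 72.7% of the scramble level (limma adjusted p from 0.0014 for ALAD to 0.0087 for CPOX).

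In mitochondrial iron and iron-sulphur assembly, 6 of 29 tested genes rose, near the 20.4% of all tested genes, and 3 fell, against 17.9%, with a median of 0.08. The mitochondrial iron importer SLC25A37 stood at 33.8 ± 0.245 FPKM in siDYRK2 libraries and 44.2 ± 1.49 FPKM in scramble libraries (SD, n = 3 each; limma adjusted p = 1.9e-04). The assembly factor ISCA1 rose 1.26-fold and CIAPIN1, of the cytosolic pathway, 1.20-fold, while CIAO2B fell to 79.8% (limma adjusted p from 6.7e-04 to 0.0016).

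Of 4 further transcripts known to carry an iron-responsive element, 2 rose and 1 fell, against 20.4% and 17.9% of all tested genes, with a median of 0.31. EPAS1, which encodes the hypoxia factor HIF-2α, stood at 16.6, 17.2 and 15.3 FPKM in siDYRK2 libraries, against 7.77, 8.13 and 9.32 FPKM in scramble libraries (log2 fold change 0.92, SE 0.0735, limma adjusted p = 1.3e-04). CDC42BPA was 0.905 times as high (limma adjusted p = 0.049), which missed the threshold in 11 of 14 alternative settings.

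Regulators and targets shared by BACH1 and NRF2, the activator that competes with BACH1 for the same sites, mostly went the other way from HMOX1. Of 14 tested genes, 10 fell, against 17.9% of all tested genes, and 2 rose, against 20.4%, and the median was −0.26. NQO1, a quinone reductase, stood at 270.3, 282 and 267 FPKM in siDYRK2 libraries, against 349, 339 and 331 FPKM in scramble libraries. OSGIN1 fell to 69.7%, GCLC, the catalytic subunit of glutathione synthesis, to 82.3% and MAFF, a small MAF partner, to 64.3% of the scramble level. The limma adjusted p of these 4 genes ran from 5.0e-04 to 0.0024. NFE2L2, the gene for NRF2 itself, and the 2 genes that rose were named after their values were seen. NFE2L2 fell to 83.2% of the scramble level (limma adjusted p = 0.0041). GCLM, the modifier subunit of glutathione synthesis, rose 1.16-fold and TXNRD1, a thioredoxin reductase, 1.10-fold (limma adjusted p = 0.012 and 0.032).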

How the data were processed

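Trizol RNA was DNase-treated before library preparation by a commercial provider, according to the labels. HISAT2 and StringTie, with the GRCh38 build, appear in the submitters' processing notes, which give neither version nor role. The annotation, strand use and read filters are not given in those sources. The authors deposited FPKM with 2 decimals for 6 libraries, matched to the labels by library name. Whole reads could not be recovered: for short single-transcript genes 20.1% to 21.7% of low values lay within 0.1 of a whole number of reads, against 20% by chance.

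Genes averaging 0.5 FPKM or more were tested with limma 3.58.1 (R 4.3.3) after taking log2(FPKM + 0.5), using a mean-variance trend, no replicate block, and Benjamini-Hochberg adjustment over 15121 genes at 0.05. This scale understates the change of low genes. The fit was tested on simulated data. Ratios are of mean FPKM. The 10 genes and the lists were chosen with earlier results of these data known. Named genes were DYRK2, the 10, up to 4 genes per wider list with the smallest adjusted p, and the 4 nearest to HMOX1 and to TFRC. Exceptions are marked in the text. Some results are not reported here. Tables and sequence searches used Python 3.11.15. Alternatives were other pseudocounts, filters, scalings, no trend, a replicate block and leaving out each library.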

Additional observations from a re-analysis of the deposited data

How the results depend on the processing

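With 14 alternative settings, the calls across all genes stayed between 2355 and 3203 higher and between 2112 and 2728 lower, and those of the wider iron lists between 14 and 20 higher and between 19 and 23 lower. The log2 fold change stayed between 1.59 and 1.71 for HMOX1, 1.34 and 1.37 for TFRC, −0.84 and −0.75 for BACH1, −0.61 and −0.57 for ACO1, and −0.55 and −0.48 for FTL. That of IREB2 ranged from −0.03 to 0.06 and so had no set sign. Of the 24 genes that the naming rule took from the wider lists, only HERC2 and CDC42BPA lost their call in any setting, at adjusted p of up to 0.088 and 0.145, and none changed sign. No pairing by replicate number showed in the values: deviations of same-numbered libraries correlated at −0.077, 0.024 and −0.088. With 3 libraries per group these correlations cannot settle whether the samples were paired, and the labels do not say. With a replicate block, 2495 genes were called higher and 2321 lower, and 16 and 21 of the wider lists. SLC40A1 entered only the fit without a filter on low values, with a log2 fold change of 0.18, where it was called higher, and its value is limited by a level near 0 at an unknown depth. In the other settings 2 of the 9 iron and haem genes tested were called higher and 3 lower, except without siDYRK2 replicate 1, where HMOX2 made it 3 higher.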
